A study of Mus musculus with 36 samples.

Results

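The genes described here are 10 genes of protein folding and degradation in the endoplasmic reticulum and of their regulation: Hspa5, Hsp90b1, Sdf2l1, Dnajb9, Dnajb11, Pdia4, Calr, Xbp1, Herpud1 and Creld2. They were taken by symbol from the table of gene counts, 10 of 29883 genes, and followed through all 12 groups of the study. The study counted RNA in cultured mouse cells that were given myelin debris: bone marrow derived macrophages, and 1 line of tumour cells from a recurrent glioma of the PDG-Ink4a model, in which Nestin-positive progenitors express platelet-derived growth factor b and Ink4a/Arf is knocked out. Cells of either type grew by themselves (mono-culture) or in the presence of the other type (co-culture) and were purified as the 0 h control or after 6 h or 24 h of myelin. Neither strain and age of the marrow donors nor the time the controls spent in culture was given here, so myelin and time in culture cannot be told apart.

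The endoplasmic reticulum is where secreted and membrane proteins fold. Hspa5 (BiP) holds unfolded chains with the help of J-domain partners, Hsp90b1 and calreticulin take over later folding steps, and disulfide isomerases such as Pdia4 set the bonds between cysteines. When unfolded chains accumulate, sensors in the membrane set off 3 branches, ATF6, PERK and the IRE1 kinase, which splices Xbp1 mRNA into the form that encodes an active transcription factor. ATF6 and XBP1 then raise the transcription of the chaperones themselves. Macrophages depend on this machinery for secretion of cytokines and lysosomal enzymes and for the handling of engulfed membrane and lipid.

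Each group held 3 libraries, numbered 001 to 003 in the labels, with total counts between 7911378 and 15319104. The labels do not say whether the 3 libraries were separate cultures or animals, so the p-values measure the spread between libraries, part of which may be technical. In macrophages the libraries numbered 001 had no Xist (0 CPM, counts scaled to the total of the library) and 64.8 to 80.1 CPM of Ddx3y from the Y chromosome, whereas those numbered 002 and 003 held at least 535 CPM of Xist and at most 5.87 CPM of Ddx3y. By these genes the macrophages of 001 were male and those of 002 and 003 female, so they had different donors. Whether 002 and 003 had separate donors is not known. The transcript CT010467.1 took 4.08% to 17.4% of the counts of the macrophage libraries numbered 001 and at most 1.22% in the others, and in tumour cells the 001 libraries lay at one end of the first principal component (16.9 to 54.6, the others at -2.37 or lower). Macrophage markers summed to 13014 to 20748 CPM in macrophages and to 13.7 to 1602 CPM in tumour cells. Of 10 glioma markers 9 were found, and they summed to 699 to 1286 CPM in tumour cells. Olig1 was at 0 in every tumour group and Fabp7 at 0.142 CPM in mono-culture at 0 h. There, of 4 fibroblast markers, the collagen genes Col1a1 and Col1a2 stood at 10736 and 7358 CPM, and Dcn and Lum at 19.8 and 1.12 CPM. Counts of calls were therefore also computed from libraries 002 and 003 alone.

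Sequences near the transcription starts of 6 members are shown because they carry the endoplasmic reticulum stress elements by which ATF6 and XBP1 are known to act. The element ERSE was searched as CCAAT and CCACG with 9 bases between them, and ERSE-II as ATTGG and CCACG with 1 base between them, on both strands, in the RefSeq promoters of GRCm38.p6, each 300 bases long and reaching 250 bases before the start. All 10 members had a promoter there. Capitals mark the fixed letters of the element, and the line gives the strand of the gene.

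Hspa5, chr2:34772020-34772048, plus strand: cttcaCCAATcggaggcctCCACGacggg
Hsp90b1, chr10:86705510-86705686, minus strand: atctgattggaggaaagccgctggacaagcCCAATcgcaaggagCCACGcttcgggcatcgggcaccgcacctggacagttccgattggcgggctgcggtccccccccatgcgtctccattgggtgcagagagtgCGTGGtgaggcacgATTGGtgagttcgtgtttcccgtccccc
Calr, chr8:84847045-84847123, minus strand: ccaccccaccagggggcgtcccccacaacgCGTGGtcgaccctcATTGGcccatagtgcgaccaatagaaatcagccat
Creld2, chr15:88819490-88819568, plus strand: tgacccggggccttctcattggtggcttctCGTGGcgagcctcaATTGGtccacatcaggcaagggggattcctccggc
Dnajb11, chr16:22857843-22857871, plus strand: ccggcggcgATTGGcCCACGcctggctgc
Herpud1, chr8:94386347-94386417, plus strand: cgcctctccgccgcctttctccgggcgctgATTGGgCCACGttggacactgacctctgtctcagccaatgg

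ERSE was found in 4 members and in 39 of 32851 promoters (0.119%), and ERSE-II in 2 members and in 12 promoters (0.0365%). The Hsp90b1 promoter held ERSE at 2 places, once on each strand. In Hspa5, Hsp90b1, Calr, Creld2 and Herpud1 the element began before the RefSeq start, 65 bases before it in Hspa5 and 52 bases in Herpud1, and in Dnajb11 it began 7 bases after it. For Hspa5 the GENCODE gene model begins upstream of these bases. The letters were not found in the windows of Sdf2l1, Dnajb9, Pdia4 and Xbp1. A match is a description of the letters, and binding was not measured.

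Before myelin, most of the 10 transcripts were more abundant in tumour cells than in macrophages. The chaperone Hspa5 (chromosome 2, 34771970 to 34777547 in mm10) stood at 507, 613 and 615 CPM in libraries 001, 002 and 003 of mono-cultured macrophages and at 782, 1023 and 1001 CPM in mono-cultured tumour cells. Calr, the lectin chaperone calreticulin (chromosome 8, 84841850 to 84846934), stood at 818, 867 and 867 CPM in macrophages and at 1047, 1394 and 1349 CPM in tumour cells. These CPM were scaled within each cell type. For both genes every tumour library was above every macrophage library, also when scaled over both cell types. Per kb of exon, in mono-cultured macrophages at 0 h and scaled over both cell types, the order of levels was Calr (295 CPM per kb), Hspa5 (137), Hsp90b1 (124), Sdf2l1 (41.1), Dnajb11 (38.1), Xbp1 (34.4), Pdia4 (32.7), Creld2 (19.2), Dnajb9 (13.2) and Herpud1 (8.2). Differences between neighbours in this order were not tested. In tumour cells Herpud1 (58.5 CPM per kb) came before Dnajb11 (38.1), Creld2 (24.6), Xbp1 (23.7), Sdf2l1 (17.2) and Dnajb9 (11.9).

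**Figure D1:**
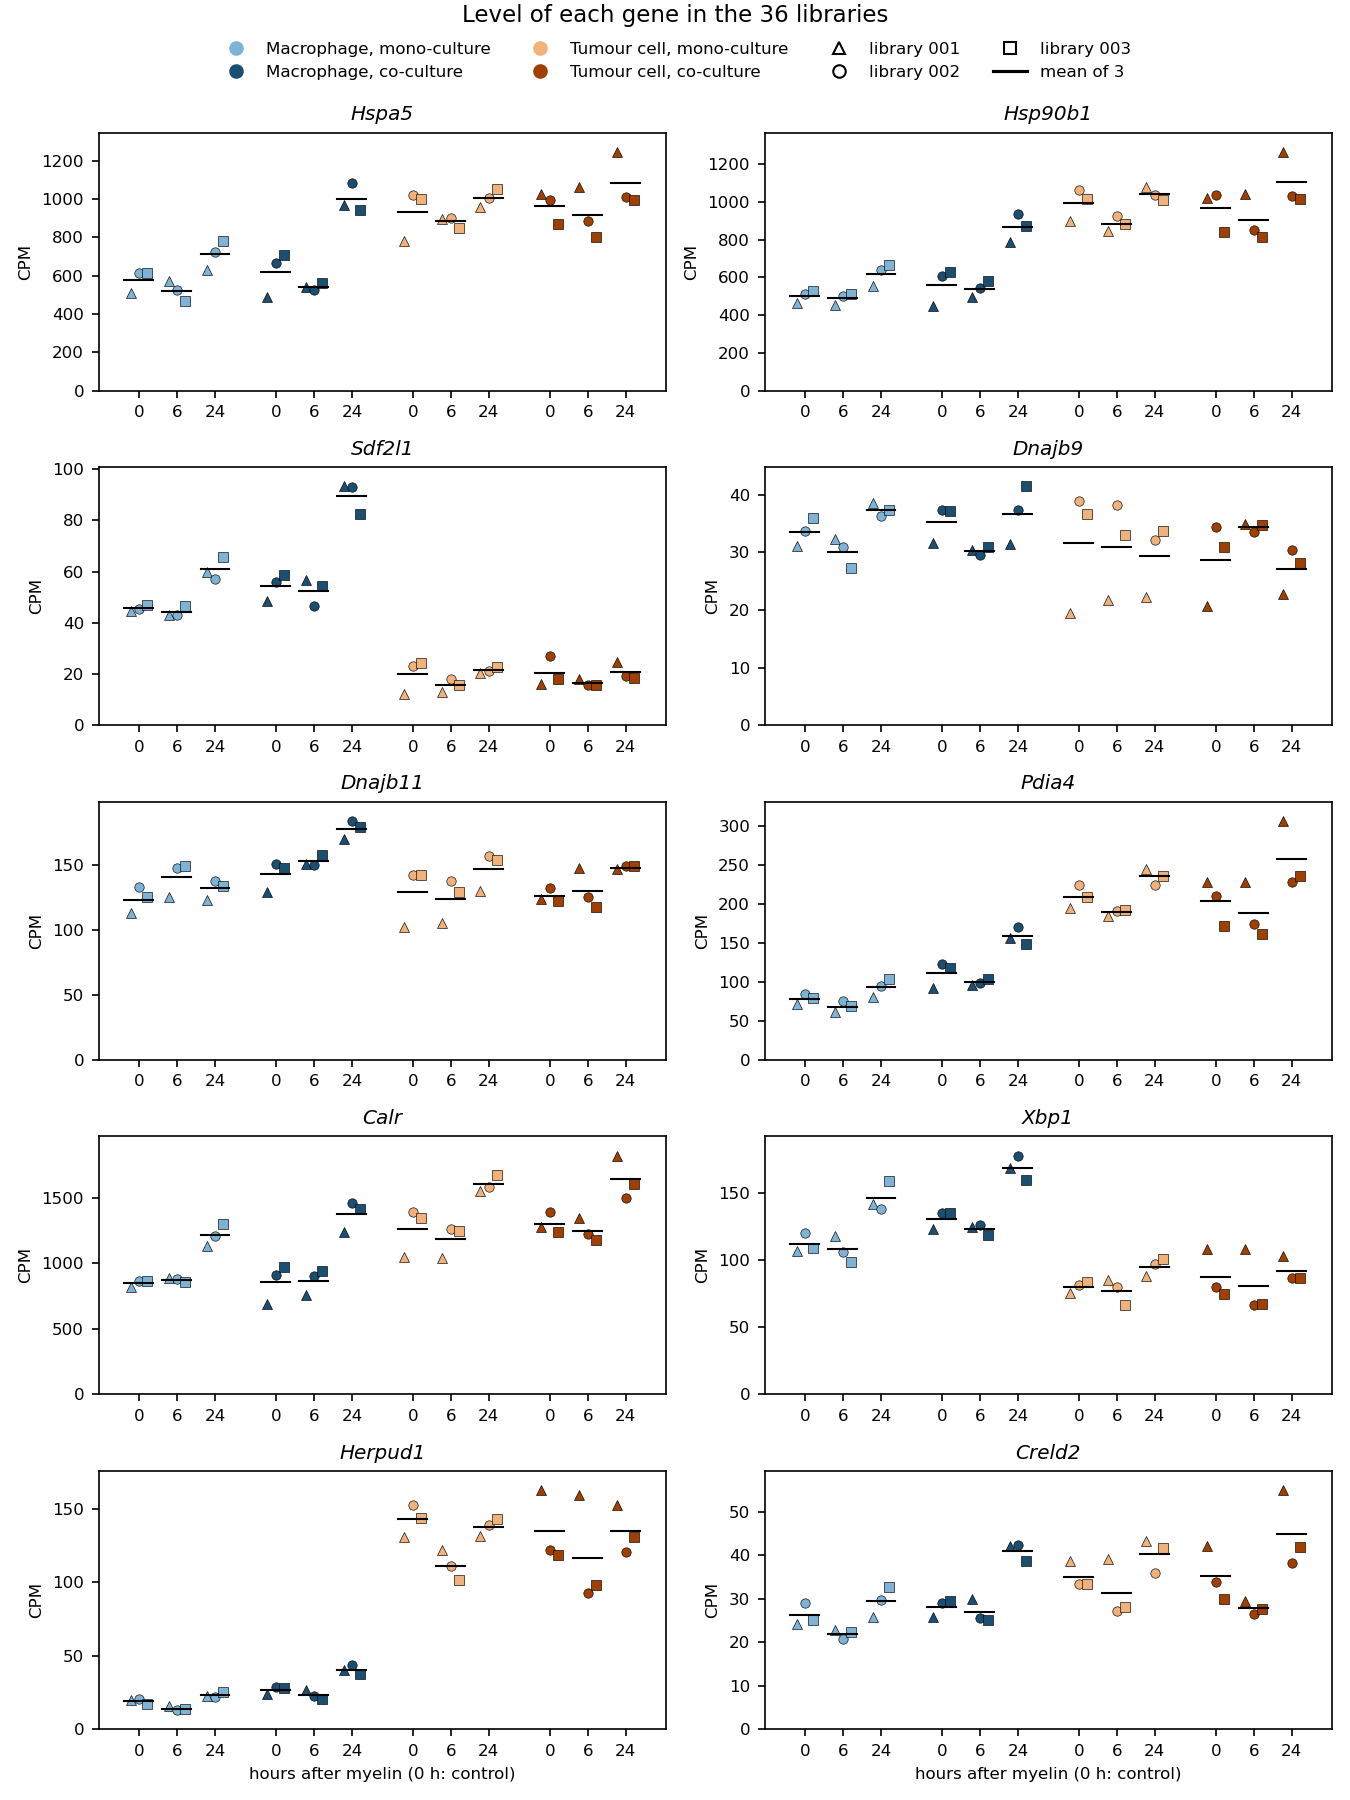
CPM (TMM-scaled within each cell type) of the 10 genes against hours after myelin, for 12 groups of 3 libraries. Symbols mark the library number and bars the group mean. Co-cultured macrophages at 24 h have the highest macrophage mean for all genes but Dnajb9, and Herpud1 and Sdf2l1 separate the cell types.

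Of the 10 genes 8 differed between mono-cultured macrophages and tumour cells at 0 h (edgeR quasi-likelihood, highest adjusted p 0.0314), where 70.0% of all 14776 genes tested did, 37.7% lower and 32.4% higher in macrophages, so the share of the members is near that of all genes. The 6 that were lower in macrophages were Herpud1 (log2 difference -2.83 ± 0.17 SE, n = 3 against 3), Pdia4 (-1.35 ± 0.15), Hsp90b1 (-0.93 ± 0.14), Hspa5 (-0.63 ± 0.14), Calr (-0.51 ± 0.13) and Creld2 (-0.35 ± 0.14). Sdf2l1, a partner of Hspa5 that keeps it bound to clients, was higher in macrophages (1.26 ± 0.18), and so was Xbp1 (0.54 ± 0.14). Dnajb9 (0.15 ± 0.21, adjusted p = 0.548) and Dnajb11 (0.00 ± 0.13, adjusted p = 0.986) did not pass. Creld2 was called in 2 of the 6 fits that leave out 1 library and not with libraries 002 and 003 alone, where 74.5% of all genes were.

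In macrophages kept alone, 6 h of myelin moved none of the 10 genes past the test, and 24 h raised 3. At 6 h 0 of 10 passed by edgeR quasi-likelihood, where 2.15% of 13165 genes did, and 8 of the 10 had a negative change. Herpud1, a membrane protein of the degradation machinery (chromosome 8, 94386438 to 94395377), had 19.9, 20.6 and 17.0 CPM at 0 h and 15.5, 12.9 and 13.4 CPM at 6 h. Its groups did not overlap, and its change of -0.47 ± 0.12 had an adjusted p of 0.0579, or 0.0395 with the library number as a block (1 of 10, against 5.07% of all genes). DESeq2 called Herpud1 alone (5.30% of all genes), and 3 of the 10 had an unadjusted p under 0.05, against 16.3% of all genes.

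At 24 h in mono-culture Calr, Sdf2l1 and Xbp1 rose (3 of 10, against 7.57% of all genes higher and 15.2% changed). Calr reached 1133, 1208 and 1302 CPM (0.51 ± 0.12, adjusted p = 0.0085 by edgeR quasi-likelihood). Xbp1, the transcription factor gene (chromosome 11, 5520659 to 5525893), went from 107, 120 and 109 CPM to 142, 138 and 159 CPM (0.39 ± 0.08, adjusted p = 0.0053). For both genes all libraries at 24 h lay above all at 0 h. Gene counts do not tell spliced from unspliced Xbp1. Sdf2l1 (chromosome 16, 17130138 to 17132383) rose from 44.4, 45.5 and 46.9 CPM to 59.8, 57.1 and 65.7 CPM (0.42 ± 0.09, adjusted p = 0.00726).

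The other members had positive changes too, between 0.09 and 0.31, and the median of the 10 was 0.29 against about 0 for all genes tested. Hspa5 had 632, 725 and 782 CPM at 24 h, all above the 0 h libraries, without passing (0.30 ± 0.13, adjusted p = 0.126). Hsp90b1, the chaperone of the Hsp90 family in this compartment (chromosome 10, 86690209 to 86705509), missed as well (0.31 ± 0.12, adjusted p = 0.0905) and passed with the library number as a block (adjusted p = 0.00625), which made 4 of 10, against 22.2% of all genes.

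Macrophages kept with tumour cells had higher levels of 9 of the 10 genes at 24 h than at 0 h, and of none at 6 h. The 9 were all but Dnajb9, against 5.39% of all genes higher and 11.4% changed, and their changes ran from 0.32 to 0.72. The median of the 10 was 0.56 and that of all genes -0.01. These 9 genes also passed with libraries 002 and 003 alone (15.4% of all genes), with a block for the library number (19.7%) and by DESeq2 (15.3%). At 6 h 0 of 10 passed (0.213% of all genes did), also by DESeq2 (2.55%) and with the block (1.79%), and 1 of 10 had an unadjusted p under 0.05, against 12.0% of all genes.

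Hspa5 had 491, 664 and 707 CPM at 0 h, 542, 524 and 561 CPM at 6 h and 969, 1086 and 945 CPM at 24 h. The 24 h libraries lay above every other macrophage library, and the change from 0 h was 0.69 ± 0.13 (n = 3 against 3, edgeR quasi-likelihood adjusted p = 0.00368). Its partner Sdf2l1 had 48.6, 56.0 and 58.5 CPM at 0 h and 93.3, 93.0 and 82.4 CPM at 24 h (0.72 ± 0.09, adjusted p = 0.000233). This was the gene with the largest change of the 10. Hsp90b1 had 450, 607 and 626 CPM at 0 h and 785, 936 and 871 CPM at 24 h (0.62 ± 0.12, adjusted p = 0.00401), without overlap.

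Calr rose from 693, 909 and 971 CPM to 1243, 1462 and 1417 CPM (0.68 ± 0.12, adjusted p = 0.00215 by edgeR quasi-likelihood). Pdia4, a disulfide isomerase (chromosome 6, 47796141 to 47813430), rose from 91.8, 123 and 117 CPM to 156, 170 and 148 CPM (0.51 ± 0.12, adjusted p = 0.0102). Creld2, which belongs to the stress-induced proteins of this compartment (chromosome 15, 88819646 to 88826683), rose from 25.9, 29.1 and 29.5 CPM to 42.2, 42.3 and 38.7 CPM (0.54 ± 0.10, adjusted p = 0.00358). Library 001 was the lowest at 0 h in these 3 genes, as in every other member. No library of the 3 genes at 0 h reached one at 24 h. With libraries 002 and 003 alone the changes were 0.63 for Calr, 0.42 for Pdia4 and 0.48 for Creld2.

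Herpud1 rose from 23.8, 28.8 and 28.1 CPM to 40.1, 43.5 and 37.8 CPM (0.59 ± 0.11, adjusted p = 0.00416 by edgeR quasi-likelihood). Xbp1 rose from 123, 135 and 135 CPM to 169, 178 and 160 CPM (0.37 ± 0.08, adjusted p = 0.00799). Of the J-domain partners, Dnajb11 (chromosome 16, 22857845 to 22879634) went from 129, 151 and 148 CPM to 170, 184 and 179 CPM (0.32 ± 0.09, adjusted p = 0.0259). Dnajb9 (chromosome 12, 44205559 to 44210326) had 31.6, 37.3 and 37.2 CPM and then 31.4, 37.3 and 41.5 CPM (0.05 ± 0.10, adjusted p = 0.784) and did not pass. The Dnajb9 groups overlapped, and the difference between the 2 genes was not tested. Dnajb11 lost its call without library 001 or 003 of 0 h and without library 002 or 003 of 24 h, and Pdia4 without library 002 of 24 h, which left 7 genes.

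**Figure D2:**
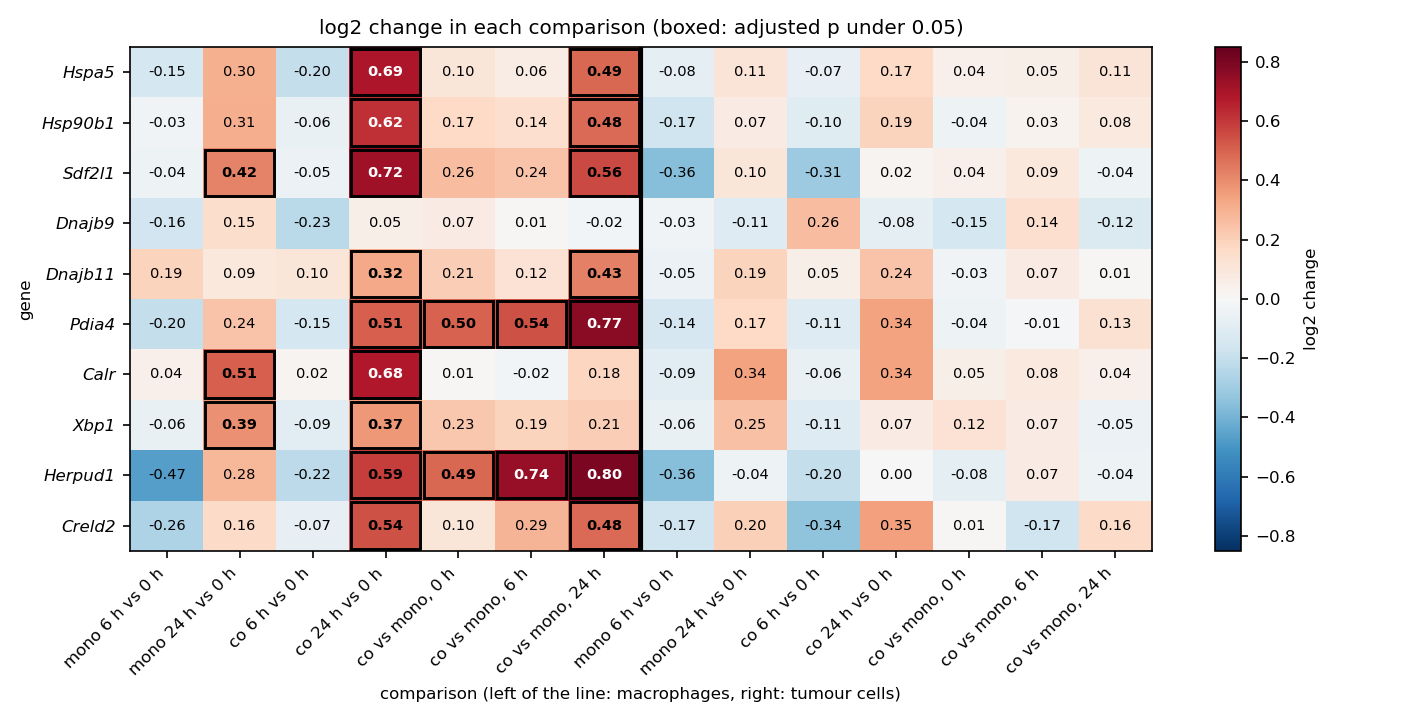
Log2 change of the 10 genes (rows) in 14 comparisons (columns), macrophages left of the line and tumour cells right of it. Boxes mark an adjusted p under 0.05. Boxes stand in macrophages only, 9 of them in co-culture at 24 h against 0 h and 7 in co-culture against mono-culture at 24 h.

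Whether the change over 24 h differed between the cultures was tested directly, and none of the 10 genes passed (0 of 10 by edgeR quasi-likelihood, 0.0152% of all genes, and by DESeq2, 0.589%). The difference, co-culture minus mono-culture, was positive for 8 genes and largest for Hspa5 (0.39 ± 0.18, adjusted p = 0.667) and Creld2 (0.38 ± 0.14, adjusted p = 0.541). Hspa5, Sdf2l1 and Creld2 had an unadjusted p under 0.05, against 7.45% of all genes. Xbp1 (-0.02 ± 0.11) and Dnajb9 (-0.10 ± 0.14) had the negative values. The 9 calls in co-culture and the 3 in mono-culture are therefore not shown to differ.

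Macrophages in co-culture differed from those alone in 2 of the genes before myelin and in 7 at 24 h. At 0 h Herpud1 (0.49 ± 0.12, adjusted p = 0.00948 by edgeR quasi-likelihood) and Pdia4 (0.50 ± 0.12, adjusted p = 0.00888) were higher, where 7.69% of all genes were higher and 13.7% changed. With the block Dnajb11 passed as well (0.21, adjusted p = 0.0271; 3 of 10, against 19.5% of all genes), and DESeq2 called 5 (13.0%). Without co-culture library 002 neither gene passed, and without mono-culture library 003 only Pdia4 did. At 6 h the same 2 genes were higher, Herpud1 by 0.74 ± 0.12 and Pdia4 by 0.54 ± 0.12, where 5.81% of all genes were higher and 9.94% changed.

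At 24 h Herpud1 (0.80 ± 0.11, adjusted p = 0.00011 by edgeR quasi-likelihood), Pdia4 (0.77 ± 0.12), Sdf2l1 (0.56 ± 0.09), Hspa5 (0.49 ± 0.13), Hsp90b1 (0.48 ± 0.12), Creld2 (0.48 ± 0.10) and Dnajb11 (0.43 ± 0.09) were higher in co-culture, with 0.00993 as the highest adjusted p. Of all genes 14.3% were higher and 28.0% changed. Pdia4 had 80.1, 94.1 and 104 CPM alone and 156, 170 and 148 CPM in co-culture, and Dnajb11 123, 138 and 134 CPM alone and 170, 184 and 179 CPM in co-culture. Neither gene's groups overlapped. Calr (0.18 ± 0.12, adjusted p = 0.273), Xbp1 (0.21 ± 0.08, adjusted p = 0.0607) and Dnajb9 (-0.02 ± 0.10) did not pass, though DESeq2 called Xbp1 as well (8 of 10, against 25.4% of all genes). Calr and Xbp1 thus rose with time in both cultures, to 1214 and 1374 CPM and to 146 and 169 CPM on average.

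Transcripts of tumour marker genes were present in the macrophages purified from co-culture. From 50 genes chosen in these data as tumour markers, the share of tumour cell RNA estimated for the 0 h libraries was 2.24% ± 1.10 (SD, n = 3). After 6 h of myelin it was 1.90% ± 1.25 and after 24 h 4.72% ± 0.0707, while the means of mono-cultured macrophages were 0.00884%, 0.00756% and 0.0254%. Macrophage RNA in tumour cells, estimated likewise from 50 macrophage markers, averaged 0.269%, 0.849% and 1.26% in mono-culture at 0, 6 and 24 h. In co-culture it averaged 1.34%, 1.07% and 1.09%. Library 001 of tumour cells held at most 0.0509%, while 002 and 003 of mono-culture held 1.61% and 2.18% at 24 h. The tumour cell means used below include this RNA. The 9 glioma markers summed to 40.6 to 134 CPM in the mono-cultured macrophage libraries and to 114 to 193 CPM in the co-cultured ones, with Ptprz1 at 0 throughout. These sums include Nes and Fabp7, at 65.2 and 16.9 CPM in mono-cultured macrophages and 30.0 and 0.142 CPM in tumour cells at 0 h. At 24 h Pdgfra, Sox9, Cspg4 and Egfr stood at 1.23, 0.107, 20.6 and 2.23 CPM in mono-cultured macrophages. In co-cultured ones they stood at 8.65, 3.04, 70.0 and 7.73 CPM, while Olig1 was lower (0.0985 against 0.355 CPM). The 4 fibroblast markers, of which the collagen genes Col1a1 and Col1a2 were abundant in this tumour line, summed to 0.577 to 19.6 CPM in mono-cultured macrophages. In co-cultured macrophages they summed to 163 to 840 CPM. In such bulk RNA fewer cells of a type and less RNA per cell cannot be told apart. A mixture was therefore computed, of the mean of mono-cultured macrophages and the mean of mono-cultured tumour cells of the same hour at each library's share.

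The mixture lay below the measured level at 24 h for each of the 7 genes that were higher in co-culture. For Hsp90b1 it gave 636 CPM against 864 CPM measured and 620 CPM in mono-culture, and for Pdia4 98.7 CPM against 158 CPM and 92.7 CPM. Herpud1, whose level at 24 h was 5.58-fold that of macrophages in tumour cells, had the mixture farthest above mono-culture, 28.2 CPM against 23.2 CPM, with 40.4 CPM measured. On a scale set over both cell types the differences between co-culture and mono-culture are 0.10 to 0.12 larger on the log2 scale than those given here. Of the rise from 0 h to 24 h in co-culture, RNA of co-cultured tumour cells at those shares came to 20.6% for Herpud1, 13.5% for Pdia4, 10.0% for Dnajb11, between 5.22% and 8.74% for Hspa5, Hsp90b1, Calr, Xbp1 and Creld2, and 1.25% for Sdf2l1. These values assume that the foreign RNA has the mean composition of tumour cells, which was not tested.

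**Figure D3:**
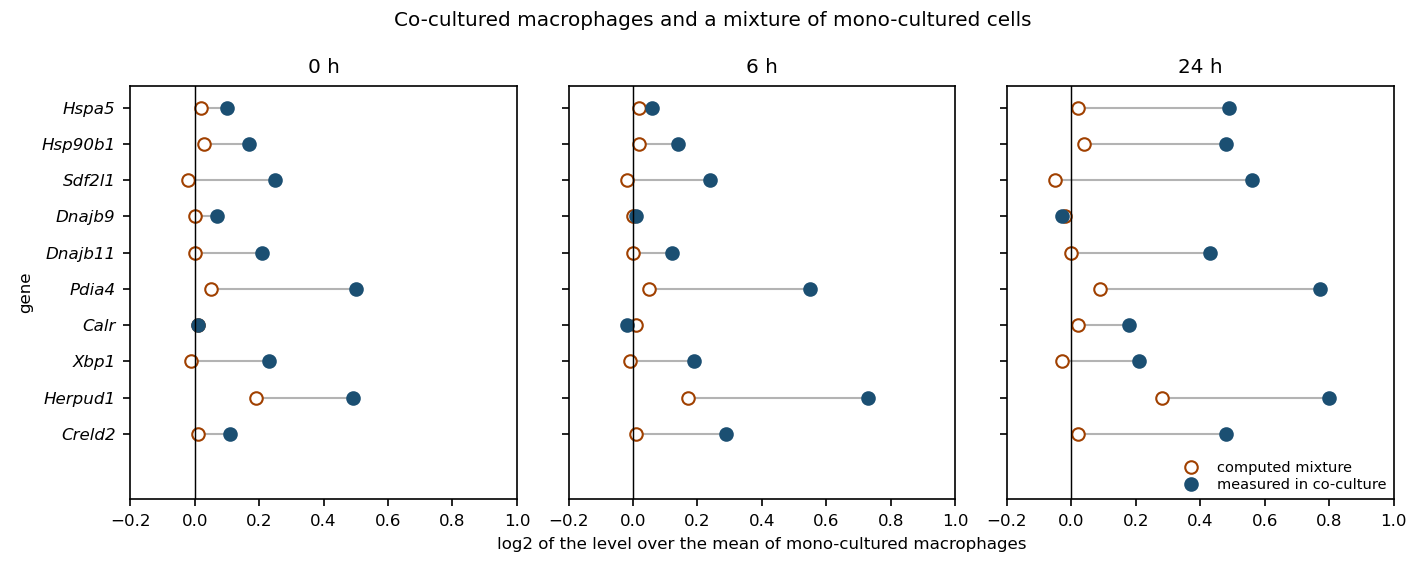
Log2 of the level in co-cultured macrophages over the mean of mono-cultured macrophages at 0, 6 and 24 h, measured (filled, mean of 3 libraries) and computed for a mixture with tumour cell RNA (open), by gene. At 24 h Hspa5 was measured at 0.49 where the mixture gives 0.02, and Herpud1 at 0.80 where it gives 0.28.

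In tumour cells 0 of the 10 genes passed in any of the 8 comparisons by edgeR quasi-likelihood. In mono-culture all 10 changes at 6 h were negative (-0.36 to -0.03), and 0.00735% of 13603 genes passed. None had an unadjusted p under 0.05, against 6.00% of all genes. At 24 h 8 were positive, where 10.5% of all genes passed. Calr went from 1047, 1394 and 1349 CPM to 1555, 1581 and 1674 CPM, with no overlap (0.34 ± 0.12, adjusted p = 0.0712), and was called with the block (27.9% of all genes) and by DESeq2 (15.4%). It was the only member with an unadjusted p under 0.05 there, against 27.0% of all genes.

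In co-culture the share of all genes that passed was 0.0147% at 6 h and 0.787% at 24 h. At 24 h Calr (0.34 ± 0.12, adjusted p = 0.21), Pdia4 (0.34 ± 0.14, adjusted p = 0.287) and Creld2 (0.35 ± 0.16, adjusted p = 0.347, edgeR quasi-likelihood) had unadjusted p under 0.05, against 14.3% of all genes. Creld2 had 42.1, 33.8 and 29.9 CPM at 0 h and 55.0, 38.2 and 41.8 CPM at 24 h, so that the groups overlapped while each library was above that of its own number. With the block it was the 1 member called, against 9.28% of all genes. Co-culture against mono-culture gave 0 of 10 at 0 h (0.00% of all genes), 6 h (0.00%) and 24 h (0.0809%), and so did the difference in the 24 h change (0.00%). No member had an unadjusted p under 0.05 in these 4 comparisons, against 5.13%, 3.99%, 13.3% and 3.65% of all genes in that order. DESeq2 called no member either, against 0.00%, 0.00%, 3.94% and 0.00365%.

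The spread between libraries was wider in tumour cells, with standard errors of 0.12 to 0.26 for single comparisons against 0.08 to 0.13 in macrophages. Sdf2l1 had 12.2 CPM in library 001 of mono-cultured tumour cells at 0 h and 23.1 and 24.2 CPM in the others, and Dnajb9 had 19.4, 39.0 and 36.7 CPM. With libraries 002 and 003 alone, 4 genes rose in co-cultured tumour cells at 24 h, Creld2 (0.33), Pdia4 (0.29), Calr (0.25) and Dnajb11 (0.24), and 2 in mono-culture, Xbp1 (0.25) and Calr (0.24). At 6 h Herpud1 then fell by 0.48 in mono-culture and by 0.34 in co-culture, and it was lower in co-culture than in mono-culture at 0 h (-0.31). The highest adjusted p among these 9 results was 0.0199 (edgeR quasi-likelihood), and each group then held 2 libraries. In the same fits 35.9% of all genes passed at 24 h in mono-culture, 22.6% at 24 h in co-culture, 6.18% and 2.98% at 6 h, and 15.8% between the cultures at 0 h. Libraries 002 and 003 of mono-culture held an estimated 0.359% and 0.446% of macrophage RNA at 0 h, and 1.61% and 2.18% at 24 h. In co-culture they held 2.33% and 1.66% at 0 h, and 1.65% and 1.55% at 24 h. The part of this RNA in these results was not tested.

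Whether macrophages and tumour cells changed differently over 24 h was tested in a fit of all 36 libraries, and no member passed. In mono-culture 0 of 10 passed (3.90% of all genes did) and none had an unadjusted p under 0.05, against 16.8%. In co-culture 0 of 10 passed by edgeR quasi-likelihood (0.305% of all genes) or DESeq2 (1.82%), with all 10 differences positive, macrophage minus tumour cell. Hspa5 (0.57 ± 0.20), Hsp90b1 (0.48 ± 0.19), Sdf2l1 (0.75 ± 0.26), Calr (0.40 ± 0.18) and Herpud1 (0.64 ± 0.22) had unadjusted p under 0.05, against 11.0% of all genes, and adjusted p between 0.223 and 0.412. With libraries 002 and 003 alone these 5 passed, the highest adjusted p being 0.0446, where 5.96% of all genes did.

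Other genes of the compartment were followed as lists. Of 19 further genes of folding and redox 6 rose in co-cultured macrophages at 24 h (5.39% of all genes did) and 0 fell (6.02%). Their median was 0.22 beside -0.01 for all genes. With the block and by DESeq2 10 rose, where 19.7% and 15.3% of all genes passed in either direction. Pdia6, another isomerase, rose from 176 ± 24.8 to 278 ± 19.1 CPM (SD, n = 3 each; 0.66 ± 0.10 SE, adjusted p = 0.00147 by edgeR quasi-likelihood), and Fkbp2, a prolyl isomerase, from 34.6 ± 1.10 to 53.3 ± 4.66 CPM (0.62 ± 0.09, adjusted p = 0.000746). Against mono-culture at 24 h 15 of the 19 were higher and 0 lower (14.3% and 13.7% of all genes), with a median of 0.36 beside -0.03, among them Pdia6 (0.76 ± 0.10) and Txndc5 (0.61 ± 0.10). In mono-culture 1 of 19 rose over 24 h, near the 7.57% of all genes.

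The degradation, translocation and export genes had medians nearer that of all genes over 24 h. Edem1, of endoplasmic reticulum-associated degradation, rose in co-culture at 24 h (0.35 ± 0.09), and the 13 tested genes of that list had a median of -0.05. Of 17 genes of translocation and signal peptide removal and 12 of export and retrieval 0 passed there by edgeR quasi-likelihood (11.4% of all genes did). An unadjusted p under 0.05 was seen for 3 and 1 of them, against 27.4% of all genes. By DESeq2 1 of each was higher, where 15.3% of all genes passed in either direction. Against mono-culture at 24 h 3 of the 17 were higher (6 by DESeq2), a share near the 14.3% of all genes, and Sec11c, a signal peptidase subunit, lower (-0.44 ± 0.09), and 5 of the 12 export and retrieval genes were higher (8 by DESeq2, which called 25.4% of all genes in either direction). Kdelr3, a receptor that returns chaperones to the compartment, stood at 2.22 CPM in co-culture and 0.14 CPM alone, while mono-cultured tumour cells held 43.2 CPM. Kdelr2 stood at 65.3 and 43.3 CPM (0.59 ± 0.12).

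Of 10 sensor genes 1 rose in co-culture at 24 h, Creb3l2 (0.41 ± 0.13, adjusted p = 0.0466 by edgeR quasi-likelihood), beside 5.39% of all genes. It also rose in mono-culture (0.49 ± 0.13, adjusted p = 0.02), and before myelin its level was 14.4 CPM in mono-cultured macrophages and 111 CPM in tumour cells. Of the sensor genes 1 rose and 1 fell in mono-culture at 24 h, beside 7.57% and 7.61% of all genes. Between the cultures at 24 h 2 were higher in co-culture and 1 lower, beside 14.3% and 13.7% of all genes. Creb3l1 was higher (0.66 ± 0.14) and Wfs1 lower (-1.1 ± 0.24). Of 12 genes of the PERK and integrated stress arm Nupr1 (0.82 ± 0.18) and Atf3 (0.54 ± 0.13) rose over 24 h in co-culture and Asns fell (-0.69 ± 0.18). Of all genes 5.39% rose and 6.02% fell there. In mono-culture 1 of the 12 rose over 24 h and 2 fell, Asns (-1.33 ± 0.19) and Psat1 (-0.95 ± 0.17). The shares of all genes there were 7.57% and 7.61%. In co-culture against mono-culture at 24 h 4 of the 12 were higher and 2 lower, beside 14.3% and 13.7% of all genes. Atf3 was lower, 213 ± 29.7 against 518 ± 15.8 CPM (-1.28 ± 0.13), and Nupr1 was higher, 11.1 ± 1.15 against 3.62 ± 1.04 CPM (1.60 ± 0.19), with 76.4 CPM in mono-cultured tumour cells at 0 h. Of 12 chaperones of the cytosol and mitochondria 5 fell (6.02% of all genes did) and 0 rose over 24 h in co-culture, such as Hspa8 (1716 ± 202 to 1170 ± 64.1 CPM, -0.55 ± 0.10) and Hsp90ab1 (-0.51 ± 0.10), and 3 fell (7.61% of all genes) and 0 rose in mono-culture. The same list fell in mono-cultured tumour cells too, where 3 of the 12 were lower at 24 h (6.81% of all genes) and 0 higher (3.66%). Dnajb1 (-0.5 ± 0.08) and Hspd1 (-0.61 ± 0.15) were among them, and the median was -0.22. In co-cultured tumour cells 0 of the 12 passed by edgeR quasi-likelihood, with a median of -0.15, and 1 fell by DESeq2. In tumour cells 0 of the 19 folding and redox genes passed at 24 h in either culture by edgeR quasi-likelihood or DESeq2. Of all genes 10.5% in mono-culture and 0.787% in co-culture passed by edgeR, and 15.4% and 3.30% by DESeq2. In each culture 1 of the 19 had an unadjusted p under 0.05, against 27.0% and 14.3% of all genes. The part of the tumour cell RNA in these lists was not tested.

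**Figure D4:**
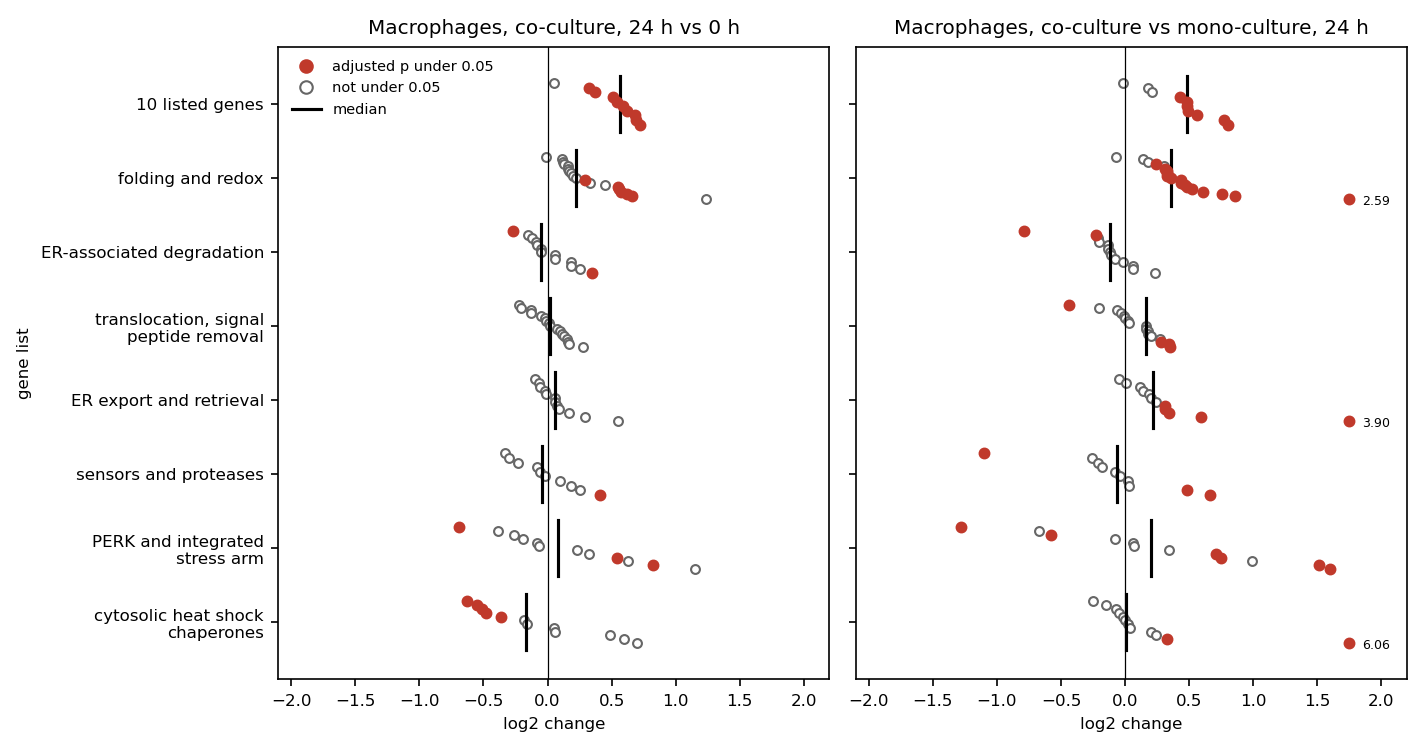
Log2 changes of single genes by list in macrophages, co-culture at 24 h against 0 h (left) and co-culture against mono-culture at 24 h (right). Filled points have an adjusted p under 0.05, lines are medians, and points beyond the axis are drawn at its edge with their value. At left the 10 listed genes have a median of 0.56 and the cytosolic heat shock chaperones one of -0.17.

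Among the genes other than members whose promoters hold ERSE or ERSE-II, 18 were tested in macrophages. In co-culture 2 rose over 24 h, Nucb1 and Pdia6, and 0 fell, beside 5.39% and 6.02% of all genes, with a median of 0.23 beside -0.01 for all genes. Against mono-culture at 24 h 6 were higher and 1 lower, beside 14.3% and 13.7% of all genes, with a median of 0.06. Of the 6 members with an element all rose in co-culture at 24 h, and of the 4 without one 3 did, where 5.39% of all genes rose. The difference between 6 of 6 and 3 of 4 was not tested.

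Over the 18 macrophage libraries each member was correlated with the mean of the other 9, as a description, since the libraries share culture, time and number. The values ran from 0.565 for Dnajb9 and 0.653 for Dnajb11 to 0.952 for Hspa5 and 0.96 for Hsp90b1. In tumour cells they ran from -0.066 for Dnajb9 to 0.94 for Hspa5. The genes outside the list whose pattern in macrophages was most like the mean of the members were Uaca (r = 0.97), Pdia6 (0.959), Nedd9 (0.941), Rbms2 (0.925) and Creb3l2 (0.92), all with their highest mean in co-culture at 24 h. Each of these 5 was also higher in tumour cells, with 57.1 to 390 CPM there in mono-culture at 0 h. In tumour cells the closest were Dnajc3 (0.912), Lman1 (0.907), Uggt1 (0.906), Serpinh1 (0.903) and Zcchc24 (0.903), all but Zcchc24 being genes of folding or export.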

How the data were processed

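RNA of 36 libraries was measured by sequencing of low-input oligo-dT libraries, per the labels' protocols. The authors deposited whole-number read counts per gene. The build was mm10, per the submitters' processing notes, and the sources used here name no aligner, counter or strand setting, so reads of Hsp90b1 and of 1810014B01Rik, which overlaps it on the other strand (at most 4.74 CPM), may not be told apart. Total counts had a median of 12262573 per library.

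From the counts, edgeR 4.0.16 (limma 3.58.1, R 4.3.3) was fitted with TMM scaling, filterByExpr and robust quasi-likelihood tests, separately for 18 macrophage libraries (13165 genes) and 18 tumour cell libraries (13603 genes), and jointly for comparisons between cell types (14776 genes). All 10 genes passed the filter in each fit. P-values were adjusted over all genes tested by Benjamini-Hochberg, with calls under 0.05, and standard errors were derived from the F statistic. Levels (CPM) are counts scaled to library size with TMM. The tests were also run on simulated counts, drawn for each library independently and without an effect of the library number. That simulation cannot show how the tests behave where same-numbered libraries deviate together. Alternatives were RLE scaling, no filter, DESeq2 1.42.0, the compared groups only, the library number as a block, non-robust dispersions, libraries 002 and 003 only, and leaving out each library.

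Same-numbered libraries deviated together (every correlation of deviations over 0.1) in all comparisons within tumour cells, in those of macrophages against 0 h and in co-culture against mono-culture at 0 h, but not in the others.

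Other genes were named by a rule: for each list with at least 3 calls in a comparison, up to 2 calls with the lowest p and no overlap between groups, and the 5 genes most correlated with the members in each cell type. Genes named where a list had fewer calls, and Asns, Edem1 and Creb3l2, were chosen after their values were seen. The result of 1 gene of the degradation list is not reported here. The members, lists and alternatives were chosen with earlier results of these data known.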

Additional observations from a re-analysis of the deposited data

How the results depend on the processing

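The 9 rises in co-cultured macrophages at 24 h were called under every alternative other than leaving out 1 library, where 7 to 9 were. No result reversed. For macrophages in mono-culture at 6 h the count of 0 became 1 (Herpud1, lower) with RLE scaling, the replicate block, libraries 002 and 003 only and DESeq2, and 0 to 1 without 1 library. For co-culture against mono-culture it was 5 instead of 2 at 0 h with DESeq2, and 8 instead of 7 at 24 h with DESeq2 and with RLE scaling, which added Xbp1. Without 1 library it was 0 to 3 at 0 h, 2 to 3 at 6 h and 7 to 8 at 24 h, and for macrophages against tumour cells 7 to 8. In tumour cells, where the count was 0, the replicate block gave 1 at 24 h in mono-culture (Calr) and 1 in co-culture (Creld2), and DESeq2 gave 1 in mono-culture. Libraries 002 and 003 only gave 1 at 6 h in each culture, 2 at 24 h in mono-culture, 4 in co-culture, 1 between cultures at 0 h, and 5 for the difference between cell types in co-culture. The cause of these differences was not tested.

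The block paired libraries by number. It added Hsp90b1 in mono-cultured macrophages at 24 h (4 calls instead of 3) and Dnajb11 in co-culture against mono-culture at 0 h (3 instead of 2), and beside those named above it changed no other call of a member. It moved the number of all genes called in co-cultured macrophages at 24 h from 1502 to 2598. Each test rests on 3 libraries a group, which limits its precision.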
